A study of Sus scrofa domesticus with 6 samples.

Results

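The 10 genes described here encode complement components and regulators: the C1q chains C1QA, C1QB and C1QC, the proteases C1R and C1S, the components C4A, C3 and CFB, and the regulators CFI and SERPING1. They were chosen by name, as the feature rows spelled exactly so, and are 10 of 33025 gene rows. All 10 are among the 23556 genes listed in all 6 libraries. The libraries are droplet single-cell RNA libraries of the lungs of domestic pigs from a single-lung transplantation model of ischemia-reperfusion injury (IRI). Grafts were stored cold for 24 hours and taken after 8 hours of reperfusion. From the grafts came 2 libraries of cells that carried the immune surface protein CD45 (IRI CD45+) and 1 library of cells without it (IRI CD45-), both taken by flow sorting. The 3 control libraries held the whole, unsorted cell suspension of the right lungs of donors. Because the controls were not sorted, an effect of the sort cannot be told apart from one of the injury. The labels give no breed, age or sex, and do not say that the libraries of a group came from separate animals, so the p-values measure the spread between these libraries.

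Complement is a cascade of plasma proteins that tags surfaces for uptake, releases inflammatory peptides and builds a membrane pore. In the classical pathway C1q, made of the products of C1QA, C1QB and C1QC, carries the proteases C1R and C1S, which cut C4 and C2; in the alternative pathway factor B, the product of CFB, joins cleaved C3 to form the enzyme that cuts more C3. Factor I, the product of CFI, degrades the active fragments of C3 and C4, and the C1 inhibitor, the product of SERPING1, blocks C1R and C1S. Outside the liver, macrophages are known to make C1q, and fibroblasts and epithelial cells make many of the other components. In the Sscrofa11.1 assembly the C1q genes lie side by side on chromosome 6, C1QA at 80586259 to 80589213, C1QC at 80592591 to 80597464 and C1QB at 80601680 to 80606076. C1R (63644097 to 63655149) and C1S (63670309 to 63681466) are neighbours on chromosome 5, and CFB (24034077 to 24040523) and C4A (24068019 to 24083060) lie on chromosome 7. SERPING1 (13324160 to 13338826) and C3 (72431470 to 72471622) are on chromosome 2 and CFI (112430824 to 112470844) is on chromosome 8. None of these 10 spans overlaps another gene of the RefSeq table.

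A UMI (unique molecular identifier) counts 1 captured transcript. The IRI CD45+ libraries held 19098567 to 19435860 UMIs, the IRI CD45- library 40647380 and the controls 25802239 to 33549585. Cells were clustered without the complement genes and the clusters were named from marker lists, with the ending "-like" because the names rest on RNA alone. Levels are CPM, the UMIs of a gene per 1000000 summed UMIs of a class in a library, given for sums of at least 20 cells. Macrophage-like cells numbered 35 and 158 in IRI CD45+ replicates 1 and 2 and 47 in the IRI CD45- library, against 248, 413 and 412 in the controls. Fibroblast-like cells numbered 143 in the IRI CD45- library, against 245, 1096 and 1415 in the controls. AT2-like cells (alveolar type 2, the surfactant-making epithelium) numbered 8155 in the IRI CD45- library, against 20, 17 and 3 in the controls, so epithelial levels have almost no control to be set against. The libraries also differ in processing before deposit, since the IRI libraries list no mitochondrial gene and hold cells of as few as 74 UMIs, while the lowest cell of each control had 1001 UMIs.

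Each gene had its own set of source classes. In the controls, fibroblast-like cells held most UMIs of C1R (82.4%, 92.2% and 90.5%), C1S (90.5%, 95.4% and 94.9%) and C3 (80.1%, 91.2% and 86.7%). They also held most UMIs of C4A in the controls (86.0%, 93.7% and 92.3%), of CFI (62.7%, 80.6% and 83.0%) and of SERPING1 (67.9%, 83.0% and 84.3%). Macrophage-like cells held 97.5%, 96.2% and 96.5% of C1QA UMIs in the controls. CFB was split in the controls between fibroblast-like cells (64.3%, 74.4% and 61.2%) and macrophage-like cells (21.3%, 15.7% and 25.8%). In the IRI CD45- library, AT2-like cells held 77.9% of the CFB UMIs, 60.2% of those of CFI, 53.6% of those of SERPING1, 52.8% of those of C3, 50.9% of those of C4A and 45.8% of those of C1R. For C1S the fibroblast-like share there was 31.9%, above the AT2-like share of 27.0%. These shares depend on the number of cells of each class, which the sort changes.

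**Figure D1:**
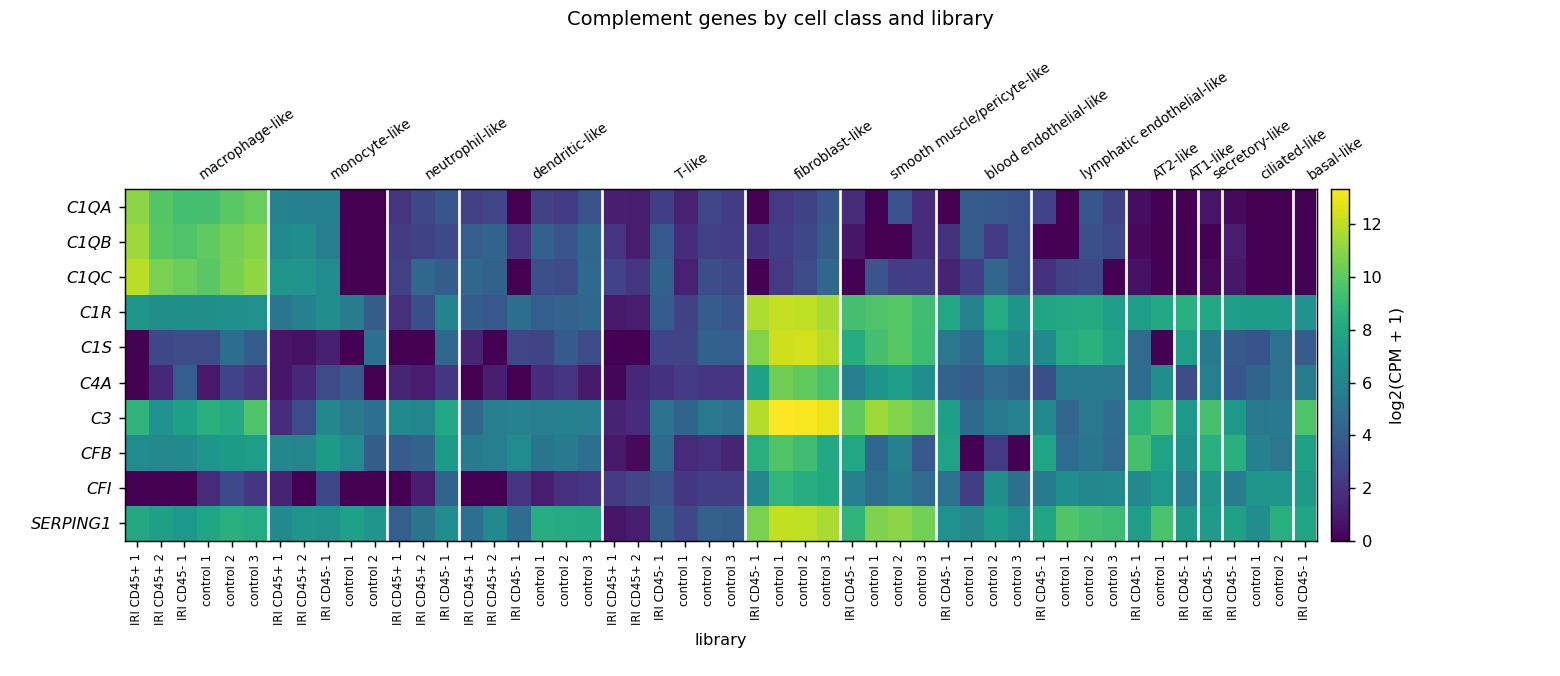
Levels of the 10 genes as log2(CPM + 1), with genes down the page and the sums of at least 20 cells of 14 classes across it, the IRI libraries of a class left of its controls. The C1q chains are bright in macrophage-like cells of every library, C1R, C1S, C3 and SERPING1 are bright in fibroblast-like cells, and CFB of the IRI CD45- library is of similar colour across its structural and epithelial classes.

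The C1q chains were at 2 very different levels in the graft macrophages, and the average did not pass the test. C1QA, the A chain, was at 2055 and 878 CPM in the macrophage-like cells of IRI CD45+ replicates 1 and 2, against 663, 976 and 1253 in the controls. C1QB, the B chain, was at 2655 and 942 CPM in the IRI CD45+ libraries, against 1077, 1462 and 1854 in the controls. C1QC, the C chain, was at 3924 and 1609 CPM in the IRI CD45+ libraries, against 965, 1524 and 2202 in the controls. Replicate 1 lay above all 3 controls for each chain, and replicate 2 lay within or below their range. Changes between groups were tested with edgeR's quasi-likelihood test on the class sums and are log2 ratios of IRI over control after TMM scaling, with Benjamini-Hochberg adjustment over all genes tested and a threshold of 0.05. The change was 0.83 ± 0.32 (SE) for C1QA (edgeR adjusted p = 0.0754), 0.51 ± 0.34 for C1QB (adjusted p = 0.282) and 1.05 ± 0.37 for C1QC (adjusted p = 0.0597). Before adjustment the p-values of C1QA (0.0277), C1QC (0.0197) and CFB (0.0357) were below 0.05, and DESeq2's test also called 0 members. Of 10569 genes tested in macrophage-like cells 12.8% rose and 17.3% fell, and none of the 8 complement genes tested did either; their median change was 0.20, against -0.19 over all genes. Single libraries decide these calls: C1QA (1.17, adjusted p = 0.0266) and C1QB (0.94, adjusted p = 0.0253) rose without IRI CD45+ replicate 2, and C1QC rose without control replicate 3 (1.39, adjusted p = 0.0397). The IRI CD45- library, which entered no test of this class, had C1QA at 650, C1QB at 799 and C1QC at 1247 CPM in its 47 macrophage-like cells.

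The graft libraries differed in the clusters that made up the class, and the part of this in the C1q spread was not tested. In IRI CD45+ replicate 2, 126 of the 158 macrophage-like cells lay in a sub-cluster led by genes that include CTSL, MS4A7, INHBA and ARG1, whose mean marker score was 1.70 for macrophages and 1.46 for monocytes on the log2 scale. There C1QA was at 67 CPM, C1QB at 85 and C1QC at 196. Another sub-cluster, led by C1QC, C1QA, PLA2G2D and C1QB, held 23 cells of replicate 1 and 27 of replicate 2. In it C1QA was at 2733 and 3729, C1QB at 3440 and 3958 and C1QC at 4707 and 6622 CPM in replicates 1 and 2. The controls lay mainly in 2 other clusters: one with 236, 345 and 268 of their cells, where C1QA was at 660, 1022 and 1638 CPM, and one with 11, 68 and 144 cells, where it was at 766, 711 and 540. Only 9 cells of IRI CD45+ replicate 1 fell in the larger control cluster, with C1QA at 1099 CPM.

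When only sub-clusters whose macrophage score led every other class by at least 0.5 were kept, a choice made after seeing the data, 33 and 32 cells of the IRI CD45+ libraries remained, against 247, 413 and 412 in the controls. C1QA was then at 2138 and 3459 CPM in the IRI CD45+ libraries, against 664, 976 and 1253 in the controls. C1QB was at 2762 and 3669 in the IRI CD45+ libraries, against 1078, 1462 and 1854 in the controls, and C1QC at 4082 and 6107, against 966, 1524 and 2202. The groups did not overlap for any chain, and the change was 1.63 for C1QA (edgeR adjusted p = 0.00246), 1.23 for C1QB (adjusted p = 0.00195) and 1.80 for C1QC (adjusted p = 0.00799). C1R also passed the test in this subset, at 0.85 (adjusted p = 0.0252). Of 10557 genes tested in the subset 1111 rose and 1562 fell, with a median change of -0.29, and 4 of the 8 members tested rose. The share of all genes without overlap between the groups was not counted. Most graft cells kept by this rule lie in the sub-cluster that is led by the C1q chains themselves, and its part in the result was not tested.

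**Figure D2:**
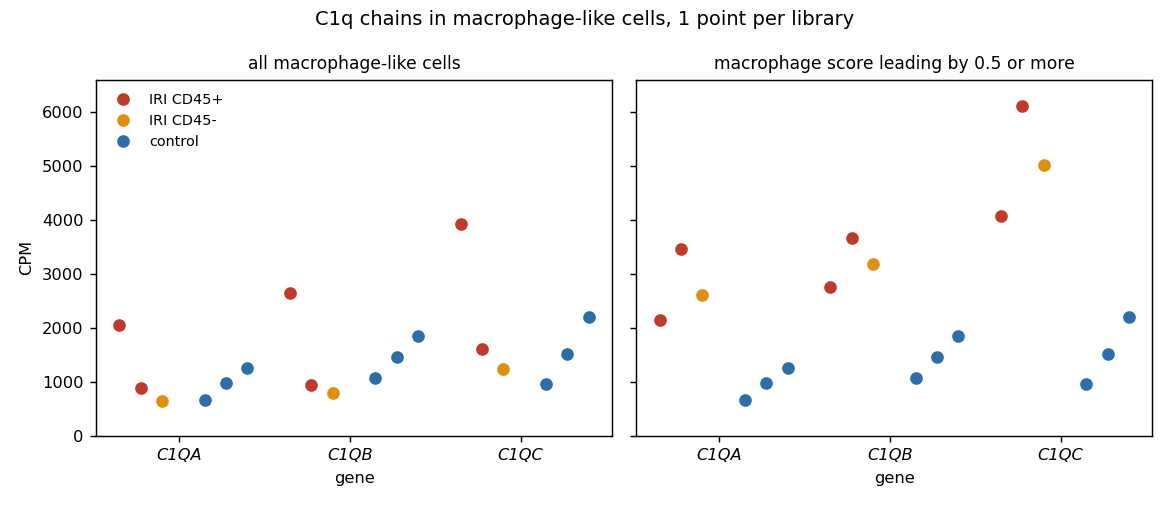
C1QA, C1QB and C1QC in CPM, 1 point per library, in all macrophage-like cells (left) and in the sub-clusters whose macrophage score led by at least 0.5 (right). On the left 1 IRI CD45+ library is above the controls, and the other is among them for C1QA and C1QC and below them for C1QB. The IRI CD45- library on the left is below the controls for C1QA and C1QB and among them for C1QC. On the right both IRI CD45+ libraries lie above all 3 controls, as does the IRI CD45- library, which has only 12 cells there.

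The chains kept company in single cells. All 3 chains had a UMI in 88.6% and 19.6% of macrophage-like cells in IRI CD45+ replicates 1 and 2 and in 21.3% in the IRI CD45- library, against 28.6%, 35.4% and 65.8% in the controls. At least 1 UMI of C1QA was found in 91.4% and 20.9% of these cells in the IRI CD45+ libraries, with medians of 11058 and 5704 UMIs per cell, against 34.7%, 40.7% and 71.1% in the controls, with medians of 6814.5, 6102 and 7282 UMIs. After thinning to 1000 UMIs per cell, C1QA had a UMI in 74.3% and 18.7% of them in IRI CD45+ replicates 1 and 2, against 21.8%, 27.9% and 46.1% in the controls. In T-like cells, which should lack C1QA, it had a UMI in 0.529% and 0.481% of cells in the IRI CD45+ libraries (medians of 3662.5 and 3609.5 UMIs), against 0.446%, 1.70% and 1.20% in the controls (medians of 2189, 2436 and 2218 UMIs). The ratio of C1QC to C1QA UMIs was 1.91 and 1.83 in the macrophage-like cells of IRI CD45+ replicates 1 and 2 and 1.92 in the IRI CD45- library, against 1.46, 1.56 and 1.76 in the controls. The ratio of C1QB to C1QA was 1.29 and 1.07 in IRI CD45+ replicates 1 and 2 and 1.23 in the IRI CD45- library, against 1.62, 1.498 and 1.48 in the controls. The 2 ratios thus moved in opposite directions, and the values of IRI and control libraries did not overlap in either. Their 95% counting intervals did in part. For C1QC to C1QA the interval was 1.69 to 1.99 in IRI CD45+ replicate 2 and 1.47 to 2.52 in the IRI CD45- library. For C1QB to C1QA it was 0.918 to 1.65 in the IRI CD45- library, while both IRI CD45+ intervals lay below those of the controls. Neither ratio was tested.

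Outside macrophage-like cells the C1q chains were low. In monocyte-like cells, which numbered 188 and 518 in IRI CD45+ replicates 1 and 2 and 260 in the IRI CD45- library, C1QA was at 60.3, 53.7 and 56.7 CPM and C1QC at 121, 123 and 86.9. The controls held 31, 27 and 14 such cells, and C1QA was listed at 0 in the 2 sums of at least 20 cells. Monocyte-like cells held 7.75% and 16.5% of the C1QA UMIs of the IRI CD45+ libraries and 28.3% of those of the IRI CD45- library. Among them a sub-cluster of 64, 258 and 114 cells in these libraries scored 1.68 for monocytes and 1.67 for macrophages. The levels and shares of monocyte- and macrophage-like cells therefore depend on its label.

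None of the other members tested in macrophage-like cells passed the test. SERPING1, the C1 inhibitor gene, was at 271 and 191 CPM in the IRI CD45+ libraries, against 233, 321 and 289 in the controls (change -0.01 ± 0.22, edgeR adjusted p = 0.980). C3, the component on which all pathways converge, was at 413 and 107 CPM in the IRI CD45+ libraries, against 347, 287 and 815 in the controls (change -0.73 ± 0.62, adjusted p = 0.407). CFB was at 89.0 and 75.6 CPM in the IRI CD45+ libraries, below all controls at 129, 150 and 173 (change -0.58 ± 0.24, adjusted p = 0.0900). C1R was at 130 and 95.6 CPM, against 95.8, 104 and 107 in the controls (change 0.42 ± 0.21, adjusted p = 0.159). C1S was at 0 and 6.4 CPM in the IRI CD45+ libraries, against 7.2, 26.9 and 14.5 in the controls, and C4A and CFI had too few UMIs to be tested. The summed macrophage markers of this class were at 5436 and 3615 CPM in the IRI CD45+ libraries, against 9775, 8298 and 9421 in the controls, and the monocyte markers at 3899 and 5140, against 3231, 3098 and 5181; their part in these results was not tested.

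In fibroblast-like cells C1S, C4A, C3, CFI and SERPING1 fell in the graft; none of the 10 genes rose, and C1R, CFB and the C1q chains did not pass the test. Of 12699 genes tested in this class 13.8% rose and 16.2% fell; 5 of the 10 members fell. The median change was -1.27 over the 10 members and -1.12 when C1QC, with 0 graft UMIs, is put at its bound and C1QA, also with 0, is left out, against -0.65 over all genes tested (-0.53 with DESeq2 size factors). The lone IRI CD45- library is assumed to vary like the controls. Its 143 fibroblast-like cells also lay in another cluster than the controls', 133 of them in a sub-cluster led by IL6, PTX3 and HAS1.

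C1R, the protease that cuts and activates C1S, was at 3343 CPM in the fibroblast-like cells of the IRI CD45- library, against 4618, 4274 and 3064 in the controls, with a change of 0.01 ± 0.28 (edgeR adjusted p = 0.991). C1S, the protease that cuts C4 and C2, was at 1796 CPM in the IRI CD45- library, against 5122, 5488 and 3868 in the controls. It fell by 1.17 ± 0.29 on the log2 scale (adjusted p = 0.00738). The ratio of C1R to C1S UMIs was 1.86 in the IRI CD45- library (95% counting interval 1.69 to 2.05), against 0.902, 0.779 and 0.792 in the controls. The graft interval lies above the values of all 3 controls; the ratio itself was not tested. At least 1 UMI of both genes was found in 69.2% of the fibroblast-like cells of the IRI CD45- library, against 98.0%, 97.6% and 93.4% in the controls. C4A, which supplies the C4 that C1S cuts, was at 198 CPM in the IRI CD45- library, against 1404, 1069 and 726 in the controls. It fell by 2.17 ± 0.45 on the log2 scale (adjusted p = 0.00877), the largest called change among the members in this class.

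C3 was at 3510 CPM in the fibroblast-like cells of the IRI CD45- library, against 10254, 9346 and 7778 in the controls, and fell by 1.12 ± 0.28 on the log2 scale (edgeR adjusted p = 0.00807). CFB was at 329 CPM in the IRI CD45- library, within the control values of 829, 594 and 262 (change -0.51 ± 0.97, adjusted p = 0.733). The controls themselves differ more than 3-fold for CFB, and control replicate 3 is the low one; without it CFB fell by 0.79 on the log2 scale (adjusted p = 0.00546). CFI, the gene of the protease that inactivates C3b, was at 71.6 CPM in the IRI CD45- library, against 436, 314 and 272 in the controls, and fell by 1.98 ± 0.39 (adjusted p = 0.00273). SERPING1 was at 1599 CPM in the IRI CD45- library, against 4393, 4225 and 3211 in the controls, and fell by 1.04 ± 0.28 (adjusted p = 0.0123). For C1S, C3, C4A, CFI and SERPING1 the graft value lay below every control. The share of all genes with a graft value below every control was not counted. The C1q chains had 0 or 1 UMI in the graft class sum and changes that did not pass the test in the full comparison; without control replicate 2 C1QC passed (adjusted p = 0.0199) with 0 graft UMIs.

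**Figure D3:**
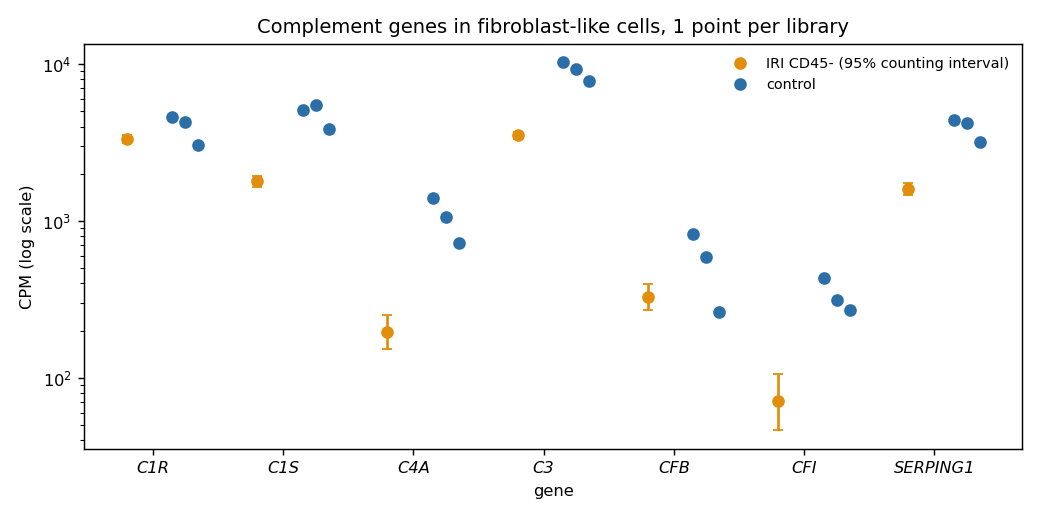
Levels of 7 complement genes in fibroblast-like cells, in CPM on a log axis, with the IRI CD45- library left (bar: 95% counting interval) and the 3 controls right of it. C1R at 3343 lies among its controls and CFB at 329 too, while C1S, C4A, C3, CFI and SERPING1 lie below all of theirs.

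Epithelial RNA was present in these sums. The summed AT2 markers were at 20307 CPM in the fibroblast-like cells of the IRI CD45- library, against 34.3, 273.6 and 53.4 in the controls. Scaled AT2- and secretory-like profiles accounted for 114 of the 3510 CPM of C3, 45.5 of the 3343 of C1R and 124 of the 329 of CFB. With these profiles subtracted, an alternative added after seeing the data, the same 5 members fell, with edgeR adjusted p of 0.0331 for C1S, 0.0309 for C3, 0.0161 for C4A, 0.00246 for CFI and 0.0490 for SERPING1. The changes were then -1.93 for C4A and -2.14 for CFI, and -0.86 for C1S, -0.85 for C3 and -0.76 for SERPING1, against a median of -0.88 over all genes tested in that fit. C1S, C3 and SERPING1 thus fell by no more than the median gene in that fit. The median itself differed between fits: without the subtraction it was -0.65 in the main fit and -0.20 with all sums thinned to the smallest. The subtraction was not run on thinned sums. Summed fibroblast markers were at 28774 CPM in the IRI CD45- library, against 69351, 76332 and 91478 in the controls; their part in the result was not tested.

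The smooth muscle/pericyte-like sums had lower SERPING1 and C1S and higher CFB in the graft. Of these only SERPING1 also passed the test with epithelial RNA subtracted. Of 7107 genes tested 21.0% rose and 14.4% fell; of the 7 members tested CFB rose and C1S and SERPING1 fell. SERPING1 was at 414 CPM in the 775 such cells of the IRI CD45- library, against 1723, 2048 and 1422 in the 58, 73 and 166 cells of the controls, and fell by 1.64 ± 0.35 on the log2 scale (edgeR adjusted p = 3.39e-05). C1S was at 307 CPM in the IRI CD45- library, against 661, 946 and 581 in the controls, and fell by 0.82 ± 0.34 (adjusted p = 0.0497), but did not pass without control replicate 2 (-0.58, adjusted p = 0.340). CFB was at 248 CPM in the IRI CD45- library, against 21.1, 55.1 and 11.2 in the controls, a change of 3.67 ± 0.43 (adjusted p = 1.10e-15), with 4.53 without control replicate 2 and 3.00 without control replicate 3. C1R, at 679 CPM in the IRI CD45- library against 803, 895 and 599 in the controls, did not pass the test (change 0.25 ± 0.32, adjusted p = 0.572). The ratio of C1R to C1S UMIs was 2.21 in the IRI CD45- library, against 1.22, 0.947 and 1.03 in the controls, the same order as in fibroblast-like cells.

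C3 was at 1030 CPM in the smooth muscle/pericyte-like cells of the IRI CD45- library, against 2785, 1795 and 1245 in the controls (change -0.50 ± 0.33, edgeR adjusted p = 0.233). C4A was at 53.9 CPM in the IRI CD45- library, against 116, 179 and 91.7 in the controls, and CFI at 54.6 against 26.4, 45.9 and 24.6; neither passed the test (adjusted p = 0.146 for C4A and 0.0575 for CFI), and CFI rose without control replicate 2 (1.55, adjusted p = 0.0470). The median change of the 7 members was -0.50, against -0.06 over all genes. The graft cells fell into 3 sub-clusters. In the one of 345 cells whose leading genes include TNC, PDGFRB, CHI3L1 and IL6, and whose score was 1.31 for smooth muscle and 0.694 for fibroblasts, C3 was at 2267 CPM and C1R at 1183. In the others, of 341 and 86 cells, C3 was at 143 and 126. Of the control cells 37, 52 and 106 lay in another cluster, which held 3 graft cells, and 19, 21 and 59 in the sub-cluster of 86 graft cells. The summed smooth muscle/pericyte markers were at 5152 CPM in the IRI CD45- library, against 13778, 18542 and 15793 in the controls, and the fibroblast markers at 5268, against 9814, 12517 and 12513; their part in these results was not tested. C3 was thus high in the first of these sub-clusters alone among the 3. With the top 6% of doublet scores removed, at a finer clustering, or with the complement genes kept for clustering, C3 fell in this class, by 2.803 to 3.76 on the log2 scale.

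For CFB the epithelial RNA in this class was close to the level found. Summed AT2 markers were at 44626 CPM in the smooth muscle/pericyte-like cells of the IRI CD45- library, against 42.3, 36.7 and 80.5 in the controls. The scaled epithelial profile held 232 of the 248 CPM of CFB, but 139 of the 1030 of C3 and 59.8 of the 414 of SERPING1. With it subtracted, CFB no longer passed the test (change 0.24, edgeR adjusted p = 0.814), nor did C1S (change -0.32, adjusted p = 0.468), while SERPING1 fell by 1.33 (adjusted p = 0.000848).

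Blood endothelial-like cells had higher C3 and CFB counts in the graft, at the level of the epithelial RNA in that library. Of 7778 genes tested 15.8% rose and 12.1% fell; of the 6 members tested C3 and CFB rose and none fell, and the median change was 0.72, against -0.12 over all genes. C3 was at 184 CPM in the 448 cells of the IRI CD45- library, against 22.5, 40.7 and 59.3 in the 78, 73 and 199 cells of the controls, a change of 2.45 ± 0.43 (edgeR adjusted p = 1.95e-05). CFB was at 205 CPM in the IRI CD45- library, from 140 UMIs, against 0, 4.1 and 0 in the controls, from 1 UMI in all (adjusted p = 2.86e-12). The ratio of the summed levels was 206, with a 95% counting interval of 36.4 to 8201. The scaled epithelial profile would give 260 CPM of CFB and 166 of C3 in this class, and summed AT2 markers were at 48758 CPM, against 62.9, 36.6 and 50.1 in the controls. With the profile subtracted C3 had a change of -0.32 (adjusted p = 0.747) and CFB was too low to be tested. The graft cells lay apart from the controls, with 271 and 171 in a pair of sub-clusters that held 0 to 3 cells of any control, while 78, 72 and 196 control cells lay in a cluster with 6 graft cells. Summed blood endothelial markers were at 5490 CPM in the IRI CD45- library, against 10669, 9284 and 8523 in the controls; the part of these in the result was not tested.

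C1R in blood endothelial-like cells was at 254 CPM in the IRI CD45- library, against 58.4, 289 and 119 in the controls, and SERPING1 at 107 against 76.4, 163 and 89.0; neither passed the test (edgeR adjusted p = 0.366 for C1R and 0.591 for SERPING1). Without control replicate 2, the highest, C1R rose by 1.83 (adjusted p = 7.16e-05). C1S was at 38.0 CPM in the IRI CD45- library, against 22.5, 138 and 72.3 in the controls, and CFI at 30.7 against 4.5, 97.7 and 29.7. Lymphatic endothelial-like cells, which were described without a test, had SERPING1 at 226 CPM in the IRI CD45- library, against 825, 654 and 556 in the controls. C1S was at 83.4 there, against 293, 361 and 205, and C1R at 239, against 264, 284 and 174. As in the fibroblast- and smooth muscle/pericyte-like cells, the graft CPM lay below all controls for SERPING1 and C1S and among them for C1R. After TMM scaling, C1R of smooth muscle/pericyte-like cells was at 895 in the IRI CD45- library, above the controls at 818, 876 and 572. The share of all genes below every control was not counted in these classes. CFB was at 223 CPM in the graft, against 24.4, 36.3 and 24.3 in the controls, where the scaled epithelial profile would give 213.

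**Figure D4:**
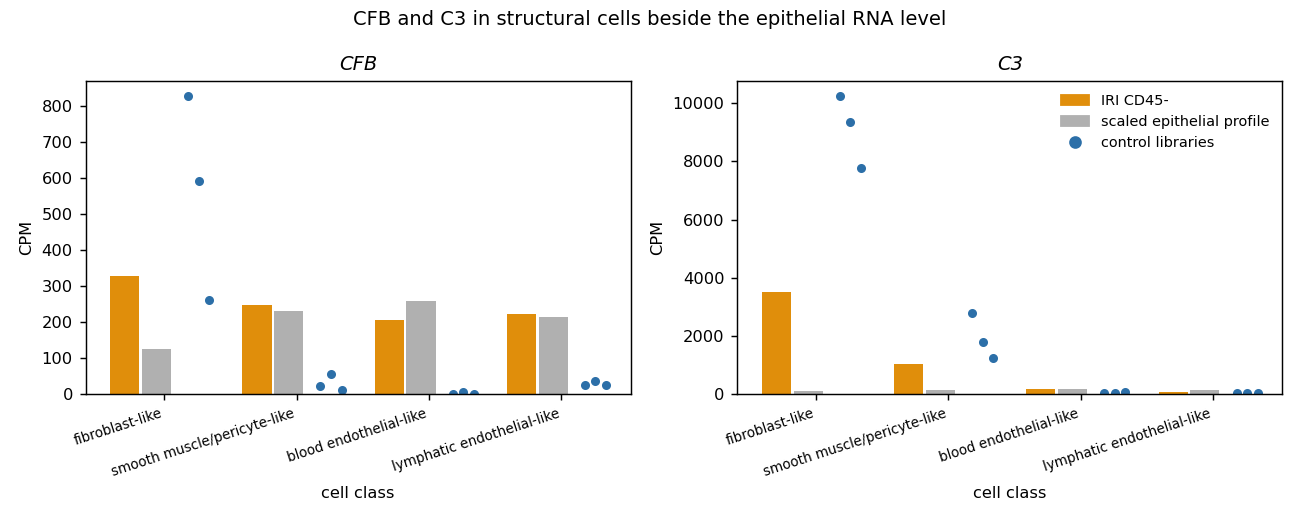
CFB (left) and C3 (right) in 4 structural classes, in CPM: the IRI CD45- library (orange bars), the level that the scaled epithelial profile would give in that library (grey bars) and the 3 controls (points). For CFB the orange and grey bars are of similar height in smooth muscle/pericyte- and endothelial-like cells, while for C3 the orange bar stands far above the grey one in fibroblast-like cells, at 3510 against 114.

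The epithelium of the graft carried every member except the C1q chains. In AT2-like cells CFB was at 674 CPM, C3 at 396, C1R at 178, SERPING1 at 173, CFI at 75.0, C4A at 24.7 and C1S at 24.0. At least 1 UMI of CFB was found in 59.2% and of C3 in 40.0% of the 8155 AT2-like cells, whose median was 2157 UMIs. With cells thinned to 1000 UMIs the shares were 40.5% for CFB and 24.7% for C3. In the T-like cells of the same library, with a median of 1513 UMIs, 4.38% had a UMI of CFB and 4.56% one of C3. The 20 AT2-like cells of control replicate 1 had CFB at 208, C3 at 785 and SERPING1 at 739 CPM; with 1 library on each side no test was made.

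The epithelial classes of the graft differed among themselves. C3 was at 792 CPM in basal-like cells, the stem cells of the airway, 691 in secretory-like cells, 396 in AT2-like cells, 138 in ciliated-like cells and 137 in AT1-like cells (alveolar type 1, the flat cells of gas exchange). The order of CFB was another: 674 in AT2-like, 354 in ciliated-like, 343 in secretory-like, 197 in basal-like and 103 in AT1-like cells. The ratio of C3 to CFB UMIs was thus 4.02 in basal-like and 2.02 in secretory-like cells but 0.587 in AT2-like and 0.390 in ciliated-like cells, and 10.7 in fibroblast-like cells of the same library. CFI was at 140 CPM in basal-like, 122 in secretory-like, 75.0 in AT2-like and 47.1 in ciliated-like cells. The ratio of C1R to C1S UMIs was 13.5 in ciliated-like, 8.00 in basal-like, 7.40 in AT2-like and 5.68 in secretory-like cells, but 1.85 in AT1-like cells. Ciliated-like cells were also found in control replicates 1 and 2 (21 and 47 cells). There CFB was at 354 CPM in the IRI CD45- library, against 55.9 and 38.4 in the controls, and C3 at 138 against 37.3 and 44.9, while CFI was at 47.1 against 130 and 128. The scaled epithelial profile would give 113 CPM of CFB, 90.5 of C3 and 16.7 of CFI in the ciliated-like cells of the IRI CD45- library. For CFB it would give 149 in basal-like and 153 in AT1-like cells, beside the 197 and 103 found. The orders and ratios above were not corrected for it. All graft values here come from 1 library with free AT2 RNA, and none was tested.

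SERPING1 fell in dendritic-like cells. It was at 28.2 and 78.6 CPM in the IRI CD45+ libraries, against 316, 290 and 281 in the controls, and the IRI CD45- library, outside the test, had 26.8. All 3 graft libraries lay far below all controls. The change was -2.34 ± 0.30 (edgeR adjusted p = 0.000156), and -3.39 (adjusted p = 1.38e-07) without IRI CD45+ replicate 2. Of 10122 genes tested in dendritic-like cells 15.9% rose and 21.2% fell; of the 8 members tested SERPING1 and C1S fell and none rose, and the median change was -0.24, against -0.10 over all genes. At least 1 UMI of SERPING1 was found in 12.3% and 22.5% of dendritic-like cells in the IRI CD45+ libraries (medians of 9846 and 9299 UMIs per cell), against 36.8%, 45.1% and 46.1% in the controls (medians of 6922.5, 7106 and 8030 UMIs). After thinning to 1000 UMIs per cell, 1.75% and 4.65% of cells had one in IRI CD45+ replicates 1 and 2, against 17.1%, 15.9% and 14.8% in the controls. T-like cells of the same libraries had a UMI of SERPING1 in 0.151% and 0.481% of cells in the IRI CD45+ libraries, against 1.88%, 4.87% and 3.68% in the controls.

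All dendritic-like cells of both groups lay in 1 cluster, whose leading genes include CCL22, FLT3 and XCR1, with 57 and 89 cells in the IRI CD45+ libraries against 258, 428 and 284 in the controls. This cluster was not split further, and the part of its makeup in these results was not tested. Summed dendritic markers were at 18882 and 16086 CPM in the IRI CD45+ libraries, against 24523, 21979 and 21063 in the controls, and macrophage markers at 585 and 573, against 487, 586 and 418. Fibroblast RNA in the dendritic-like sums was low: the 15 fibroblast markers summed to 0 and 2.35 CPM in the IRI CD45+ libraries, against 43.0, 129.2 and 175.9 in the controls. The fibroblast profile, scaled to the summed COL1A1, COL1A2 and COL3A1 of the class, held 1.88, 6.63 and 5.82 of the 316, 290 and 281 CPM of SERPING1 in the controls. With it subtracted SERPING1 fell by 2.31 (edgeR adjusted p = 0.000164). SERPING1 also passed the test under every alternative run. C1S rested on 1 UMI in the IRI CD45+ libraries, against 66 in the controls (adjusted p = 0.0214), a ratio of 0.0727 with a 95% counting interval of 0.00181 to 0.420. For C1S the scaled fibroblast profile held 2.19, 8.61 and 7.01 of the 5.58, 12.5 and 7.39 CPM of the controls, and after subtraction C1S did not pass the test. Without IRI CD45+ replicate 2 C1S did not pass either (-2.44, adjusted p = 0.111); without replicate 1 the graft side has 0 UMIs, and without control replicate 2 or 3 it was not tested.

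**Figure D5:**
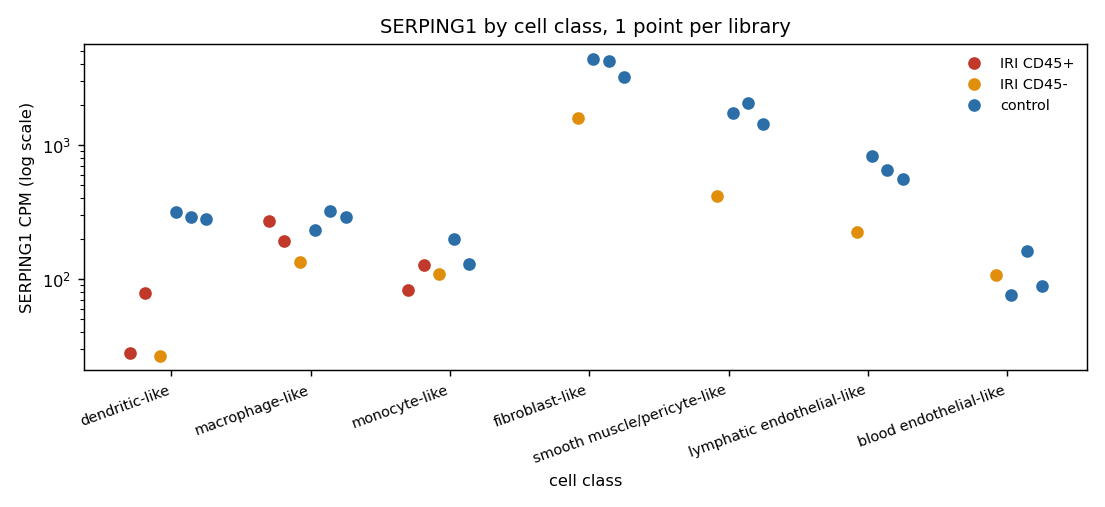
SERPING1 in CPM on a log axis in 7 classes, 1 point per library, IRI libraries left of the controls. The IRI libraries lie below all controls in dendritic-, fibroblast-, smooth muscle/pericyte- and lymphatic endothelial-like cells, and among the controls in blood endothelial-like cells.

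CFB and C3 in dendritic-like cells did not pass the test. CFB was at 43.9 and 51.6 CPM in the IRI CD45+ libraries, against 35.7, 43.2 and 27.7 in the controls (change 0.49 ± 0.26, edgeR adjusted p = 0.168), and C3 at 20.4 and 50.5, against 50.8, 56.6 and 53.1 (change -0.47 ± 0.31, adjusted p = 0.252). Without IRI CD45+ replicate 2, the higher of the graft libraries, C3 fell by 1.40 (adjusted p = 0.00674). In monocyte-like cells, described without a test, CFB was at 72.7 and 65.9 CPM in the IRI CD45+ libraries and SERPING1 at 82.8 and 127. These monocyte-like cells held 47.7% and 50.6% of the CFB UMIs of those libraries. For SERPING1 they held 37.0% and 52.5%, against 41.2% and 23.5% in macrophage-like cells. They include the sub-cluster with nearly equal monocyte and macrophage scores (1.68 and 1.67), so these shares depend on its label. Neutrophil-like cells, 878 and 762 in IRI CD45+ replicates 1 and 2, had C3 at 78.7 and 68.6 and CFB at 13.7 and 17.7 CPM. The controls held 3 to 6 such cells, too few for a level.

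T-like cells, which are not known as a main source of these proteins, had low levels in both groups, and 6 of the 9 members tested fell in the graft. C3 was at 1.4 and 2.1 CPM in the IRI CD45+ libraries, against 18.4, 39.6 and 33.0 in the controls, and fell by 4.01 ± 0.40 on the log2 scale (edgeR adjusted p = 8.31e-07). SERPING1 was at 0.7 and 1.0 CPM, against 6.2, 16.1 and 14.0 in the controls (change -3.67 ± 0.53, adjusted p = 2.20e-05), and C1R at 0.9 and 1.0, against 5.2, 13.9 and 10.4 (change -3.21 ± 0.53, adjusted p = 8.30e-05). C1S had 0 UMIs in the IRI CD45+ libraries, against 161 in the controls, so it was at least 40.8-fold lower in the graft when the floor is set at 3 counts for the graft group (adjusted p = 1.12e-05). C1QA (change -1.54, adjusted p = 0.0489) and C4A (change -1.82, adjusted p = 0.0343) fell as well, but C1QA did not pass without IRI CD45+ replicate 1 (adjusted p = 0.102) or 2 (adjusted p = 0.104). C4A did not pass without control replicate 1 (adjusted p = 0.0685) or IRI CD45+ replicate 1 (-0.76, adjusted p = 0.379), and had a change of -3.94 without IRI CD45+ replicate 2. Of 11838 genes tested 28.1% rose and 31.8% fell, and none of the 9 members rose. Their median change was -1.82, also with C1S at its bound, against -0.04 over all genes.

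Fibroblast RNA was present in the T-like sums of the controls, where the fibroblast markers summed to 1.72 and 3.12 CPM in the IRI CD45+ libraries, against 54.7, 199.6 and 283.7 in the controls. For C3 the scaled fibroblast profile held 6.95, 23.6 and 22.8 of the 18.4, 39.6 and 33.0 CPM of the controls. With it subtracted 4 members fell, C1QA, C1S, C3 and SERPING1, with a change of -2.74 for C3 and -2.24 for SERPING1. The T-like cells of the groups lay largely in different clusters: 1 cluster held 1289 of 1324 and 759 of 832 such cells in IRI CD45+ replicates 1 and 2, against 34 of 1120, 57 of 1355 and 55 of 1170 in the controls. Summed T markers were at 3532 and 3971 CPM in IRI CD45+ replicates 1 and 2, against 3736, 4204 and 3568 in the controls. The part of the clusters in these results was not tested. In the T-like cells of the IRI CD45- library, outside the test, C3 was at 29.9 and SERPING1 at 14.5 CPM, within the control ranges. There the scaled epithelial profile would give 25.8 CPM of C3 and 10.6 of SERPING1.

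Of a wider list of 45 complement genes, 34 were listed in all 6 libraries and could be tested: 7 of 7 of the classical pathway, 5 of 8 of the lectin pathway, 4 of 4 of the alternative pathway with C3, 6 of 7 of the terminal pathway, 6 of 7 soluble regulators and 6 of 8 receptors. CD46, CD55 and CD59, which restrain complement at the cell surface, were not analysed here. In macrophage-like cells 23 of the list were tested, none rose and 4 fell, where 12.8% of all genes rose and 17.3% fell. VSIG4, a complement receptor of resident macrophages, averaged 75.1 ± 15.8 TMM-scaled CPM in the IRI CD45+ libraries (SD, n = 2) and 208 ± 36.0 in the controls (SD, n = 3), and fell by 1.49 ± 0.27 on the log2 scale (edgeR adjusted p = 0.00501). ITGAM, a chain of complement receptor CR3, fell by 2.84 (adjusted p = 0.0161) and C2, which joins C4 in the classical enzyme, fell by 0.71 (adjusted p = 0.0427). MASP1, a protease of the lectin pathway, had 0 UMIs in the IRI CD45+ libraries, against 130 in the controls (adjusted p = 0.00594). C5AR1, the receptor of the C5a peptide, had a change of 0.06 (adjusted p = 0.875), C3AR1, the receptor of C3a, one of 0.85 (adjusted p = 0.435) from 6 graft UMIs, and CLU, a fluid-phase inhibitor of the pore, one of -0.29 (adjusted p = 0.815).

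In dendritic-like cells 17 of the list were tested, 4 rose and 5 fell, C1S and SERPING1 among them, where 15.9% of all genes rose and 21.2% fell. CFD, the protease that activates factor B, averaged 353 ± 98.5 TMM-scaled CPM in the IRI CD45+ libraries (SD, n = 2) and 204 ± 19.8 in the controls (SD, n = 3), and rose by 0.80 (edgeR adjusted p = 0.00452). CFP, properdin, which steadies the alternative enzyme, rose by 0.97 (adjusted p = 0.00729), CD93 by 2.36 (adjusted p = 0.00178) and C5AR1, at 12 and 16 UMIs over the groups, by 1.84 (adjusted p = 0.0468). ITGAM fell by 1.35 (adjusted p = 0.0112), and MASP1 and C5 fell with 1 and 0 UMIs in the IRI CD45+ libraries. In T-like cells 19 were tested, none rose and 15 fell, where 28.1% of all genes rose and 31.8% fell. Beside the 6 members these were MASP1 (0 UMIs in the IRI CD45+ libraries, against 166 in the controls, adjusted p = 3.66e-07), COLEC12 (0 and 30 UMIs, adjusted p = 0.00180), CLU (2 and 73 UMIs, adjusted p = 5.27e-05), C2, CFD, C5, C7, ITGAM and C4BPB, a chain of the C4b-binding protein. The changes were -2.20 for C2 (adjusted p = 0.00899), -2.65 for C5 (adjusted p = 0.00286), -2.25 for C7 (adjusted p = 0.0136) and -0.99 for CFD (adjusted p = 0.00855). They were -1.55 for C4BPB (adjusted p = 0.00724) and -1.64 for ITGAM (adjusted p = 0.0240). With fibroblast RNA subtracted 14 could be tested and 9 fell: C1QA, C1S, C3, SERPING1, C2, MASP1, C5, C4BPB and ITGAM. CFD then had a change of -0.26 and did not pass the test (adjusted p = 0.458).

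In fibroblast-like cells 23 of the list were tested, none rose and 9 fell, 5 of them members, where 13.8% of all genes rose and 16.2% fell. C7, a subunit of the pore, was at 245 TMM-scaled CPM in the IRI CD45- library and averaged 1305 ± 142 in the controls (SD, n = 3), and fell by 2.41 ± 0.28 (edgeR adjusted p = 1.79e-05). COLEC12, a collectin scavenger receptor, had 2 UMIs in the IRI CD45- library and 2262 in the controls, a ratio of 0.0282 with a 95% counting interval of 0.00341 to 0.102 (adjusted p = 4.31e-06), and C9, which polymerises into the pore, had 1 and 469 UMIs (adjusted p = 0.00297). MASP1 had 0 UMIs in the IRI CD45- library and 183 in the controls (adjusted p = 0.0226). CLU had a change of -1.88 that did not pass the test (adjusted p = 0.279), with a wide spread between the controls. In smooth muscle/pericyte-like cells 14 were tested, 3 rose and 5 fell, where 21.0% of all genes rose and 14.4% fell. Beside the members, CFD rose by 0.89 (edgeR adjusted p = 0.01999), and by 1.05 with epithelial RNA subtracted (adjusted p = 0.00818). C7 fell by 1.87 (adjusted p = 5.19e-05) and COLEC12 by 3.47 (adjusted p = 3.68e-06). CD93 had 3 UMIs in the IRI CD45- library and 55 in the controls, a ratio of 0.0349 with a 95% counting interval of 0.00697 to 0.107 (adjusted p = 7.11e-07). In blood endothelial-like cells 12 were tested, 4 rose and 1 fell, where 15.8% of all genes rose and 12.1% fell; CFD fell by 1.95 (adjusted p = 0.000382) and CLU rose by 2.27 (adjusted p = 8.43e-05). With epithelial RNA subtracted CFD fell in blood endothelial-like cells by 1.74 (adjusted p = 0.000282), while CLU had a change of -1.50 (adjusted p = 0.0912). C5 rose in smooth muscle/pericyte- and blood endothelial-like cells (adjusted p = 3.01e-08 and 0.000115) from 2 control UMIs each, and was too low to be tested after the subtraction.

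The likeness of patterns was measured as Pearson's r of log2(CPM + 1) over the 73 class sums, with 6763 genes compared. C1QA was most like C1QB (0.921) and C1QC (0.914), followed by an unnamed gene (0.872) and MS4A7 (0.842). C1R was most like RND3 (0.885), FSTL1 (0.878), SERPING1 (0.878), SERPINH1 (0.857) and RNASE4 (0.853). C3 was most like C1R (0.825), COL6A1 (0.800), SERPING1 (0.799), CLU (0.795) and FOLR2 (0.787). After an unnamed gene (0.867) CFB was most like CHPT1 (0.825), PDPN (0.799), NPC2 (0.794) and LCN2 (0.780). Class sums of 1 library share its depth and free RNA, so these are descriptions.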

How the data were processed

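The deposited matrices hold raw UMI counts per gene and cell, written by PISA per the file headers. The submitters' processing notes name Sscrofa11.1, Seurat and R. The aligner is not given in the sources used here, nor is the gene annotation. The members, the wider list and the markers were chosen with earlier results of these data known.

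Cells with at least 500 UMIs, 200 genes and at most 20% mitochondrial UMIs were kept, 40776 after doublet calling. Scrublet at an expected rate of 6% called between 0 and 41 cells a library and so had not worked; barcodes are serial numbers within a library, so cells shared between libraries could not be counted. Clustering used scanpy 1.11.5 (2000 variable genes without complement genes, 30 components, 15 neighbours, Leiden resolution 1, no integration). Clusters took the class with the highest mean marker score, at least 1.0 with at least 3 markers; those whose best classes lay within 0.5, or whose next class also reached 1.0, were split at resolution 0.5. The last condition was added after seeing the clusters. This gave 116 clusters in 18 named classes; 10.5% of cells stayed unnamed (11.1% and 14.6% in IRI CD45+, 3.11% in IRI CD45-, and 21.6%, 14.1% and 13.0% in the controls). 139 of 17062 Ensembl identifiers took a symbol from the reference table.

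UMIs were summed per class and library over genes listed in all 6 libraries and tested with edgeR 4.0.16 (R 4.3.3; TMM, filterByExpr, robust quasi-likelihood), with Benjamini-Hochberg adjustment. SE is the log2 change over the square root of F. CPM levels are without TMM scaling unless called TMM-scaled. Intervals (exact, 95%) and floors (3 counts) cover counting error only. The epithelial profiles were scaled to the SFTPC and SCGB1A1 levels of a class, the fibroblast profile to its summed COL1A1, COL1A2 and COL3A1. The code was tested on simulated data. Named were all members, list genes that passed the test, and C3AR1, C5AR1, CD46, CD55, CD59 and CLU. Members in NK-, B-, plasma- and mast/basophil-like cells are not described, and not every member is given in each other class. Alternatives are given in the closing section. One item of the naming rule is not reported here.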

Additional observations from a re-analysis of the deposited data

Results flagged for a closer look

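In 4 cases the change of a member differed between fibroblast-like cells and another structural class of the same libraries, by an interaction term in edgeR's quasi-likelihood test. The CFB change in fibroblast-like minus that in smooth muscle/pericyte-like cells was -3.97 on the log2 scale (adjusted p = 8.45e-09), and the CFI difference was -3.10 (adjusted p = 4.29e-05); 208 of 11035 genes passed in that fit. Fibroblast-like minus blood endothelial-like cells gave -3.59 for C3 (adjusted p = 0.000988) and -8.21 for CFB (adjusted p = 1.35e-06), where CFB had 1 control UMI in endothelial-like cells; 268 of 10421 genes passed. With the scaled epithelial profile subtracted, the CFI difference was -2.85 (adjusted p = 0.00198), while the CFB differences were -0.95 (adjusted p = 0.400) and 2.68 (adjusted p = 0.774) and the C3 difference was -0.62 (adjusted p = 0.678). The IRI side of each difference is 1 library.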

How the results depend on the processing

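Counts are members called. In macrophage-like cells, where 0 were called, 5 were without the filter on low counts, 4 with sub-clusters led by macrophage markers, 1 in the fit with the replicate number as a block (C1QC, 1.34, adjusted p = 0.0335), and 0 to 2 with 1 library left out: C1QC without control 3, C1QA and C1QB without IRI CD45+ 2. Deviations of same-numbered libraries had correlations from -0.082 to 0.068. With 2 IRI CD45+ libraries, whose deviations mirror each other, these values cannot show whether the numbers pair the libraries. In dendritic-like cells 2 were called, and 1 with DESeq2's test, the stricter cell filter, thinned sums, or fibroblast RNA subtracted, and 1 to 2 with 1 library left out, C1S failing or going untested each time 1 was called. In smooth muscle/pericyte-like cells 3 were called, 5 with the top 6% of doublet scores removed, 5 at Leiden resolution 2, 6 with complement genes kept for clustering, where C1R reversed to -0.84 (adjusted p = 0.0423), and 1 with epithelial RNA subtracted. In blood endothelial-like cells 2 were called, 2 to 3 with 1 library left out, and 0 with epithelial RNA subtracted, where C3 reversed to -0.32. Counts in T-like (6) and fibroblast-like cells (5) stayed within 1.5 times. Of all values recomputed 620 stayed on their side of the threshold, among them 41 uncalled values whose sign changed (C1R in dendritic-like cells from -0.38 to 0.10 with fibroblast RNA subtracted, for example), 27 gained and 23 lost the call, and 2 reversed; apart from the subtractions and the sub-cluster choice the causes were not tested. Class sums of few cells limit the depth of the C1q chains outside macrophages.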

Other observations

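MASP1, the gene of a lectin pathway protease, had 0 UMIs in the macrophage-, T- and fibroblast-like sums of the IRI groups and 1 in the dendritic-like sum, against 130, 166, 183 and 93 UMIs in the corresponding control sums. In the controls it averaged 12.6 ± 1.4 TMM-scaled CPM in macrophage-like cells, 14.4 ± 9.0 in dendritic-like, 12.8 ± 3.6 in T-like and 16.2 ± 3.2 in fibroblast-like cells (SD, n = 3 each), so its control level was alike in 4 unlike classes. With the floor set at 3 counts for the graft group it was at least 6.94-fold lower in the IRI macrophage-like, 42.1-fold lower in the IRI T-like and 1.91-fold lower in the IRI fibroblast-like cells.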
